A study of Mus musculus with 4 samples.

Results

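The genes described here move zinc, iron and copper across membranes or hold these metals inside the cell. They were chosen by name, as every gene-detecting probe on the array whose gene name was Slc30a or Slc39a with a number, or 1 of 14 other names (Slc40a1, Slc11a1, Slc11a2, Slc31a1, Slc31a2, Cybrd1, Heph, Tfrc, Fth1, Ftl1, Mt1, Mt2, Atp7a and Atp7b). This gave 38 genes on 65 probes, of 37074 gene names on the array. There were 10 genes of the Slc30a family, 14 of the Slc39a family, 2 metallothioneins, 8 iron genes and 4 copper genes.

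RNA came from scraped epithelium of jejunum and ileum of C57BL/6J mice aged 9 weeks. All mice were Tcrbd-/-, with neither beta nor delta chain of the T cell receptor. They were, for D-amino acid oxidase (DAO), an enzyme that breaks down D-amino acids, DAOwt/wt (wild-type here) or DAOG181R/G181R (G181R here), a change known to abolish the enzyme's activity. Each of the 4 groups, 1 per tissue and genotype, was 1 pool of RNA from 5 mice on 1 single-colour Agilent array. The 4 arrays were on 1 slide. No group had a replicate array, so no difference below has a test, a p-value or an error between animals. The only error at hand is that of repeated spots of 1 probe within an array, a median SD of 0.056 to 0.0579 for a log2 difference between 2 arrays.

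Between 57.4% and 60.4% of the 56605 probes were well above background on an array, and no spot was saturated. The level of a gene is the log2 of its processed signal minus the array's 75th percentile, taken at its brightest probe, and a log2 difference of 1 is 2-fold. Signals of different genes depend on their probes and cannot be set against each other. The tissue labels fitted the region markers: the ileal genes Fabp6 and Slc10a2 were higher in ileum by 13.72 and 8.53 on the log2 scale in wild-type, and lactase (Lct), a jejunal enzyme, differed by -9.83. Smooth muscle genes, which scraping can carry along, were unequal between groups: 9 of 9 listed genes were lower in G181R than in wild-type ileum, with a median log2 difference of -2.51, while in jejunum 8 of 9 were higher, with a median of 0.12. Between ileum and jejunum their median was 1.54 in wild-type and -1.02 in G181R. The part of these genes' cells in the values below was not tested. In RNA of a whole tissue, fewer cells of a type and less RNA per cell cannot be told apart.

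Enterocytes of the small intestine take up dietary metals at the brush border and pass them to the blood at the basolateral side. Iron is reduced by duodenal cytochrome b (Cybrd1), enters through DMT1 (Slc11a2), is stored in ferritin (Fth1, Ftl1), leaves through ferroportin (Slc40a1) and is oxidised by hephaestin (Heph). Zinc enters the cytosol through ZIP proteins (Slc39a), leaves it through ZnT proteins (Slc30a), and is bound by metallothioneins. Copper enters through CTR1 (Slc31a1) and is exported by the ATPase of Menkes disease (Atp7a).

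Of the 38 genes, 33 were well above background on all 4 arrays. Slc30a8 and Slc39a12, zinc transporters, were below that limit on every array, with signals of 1.2 to 1.8. Slc30a3 passed it in wild-type jejunum alone, with a signal of 8.5 against 1.3 to 1.6 elsewhere. The lowest signal well above background was 5.83 to 7.36 on the 4 arrays. Slc39a10 and Slc39a2 passed on every array except wild-type jejunum.

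**Figure D1:**
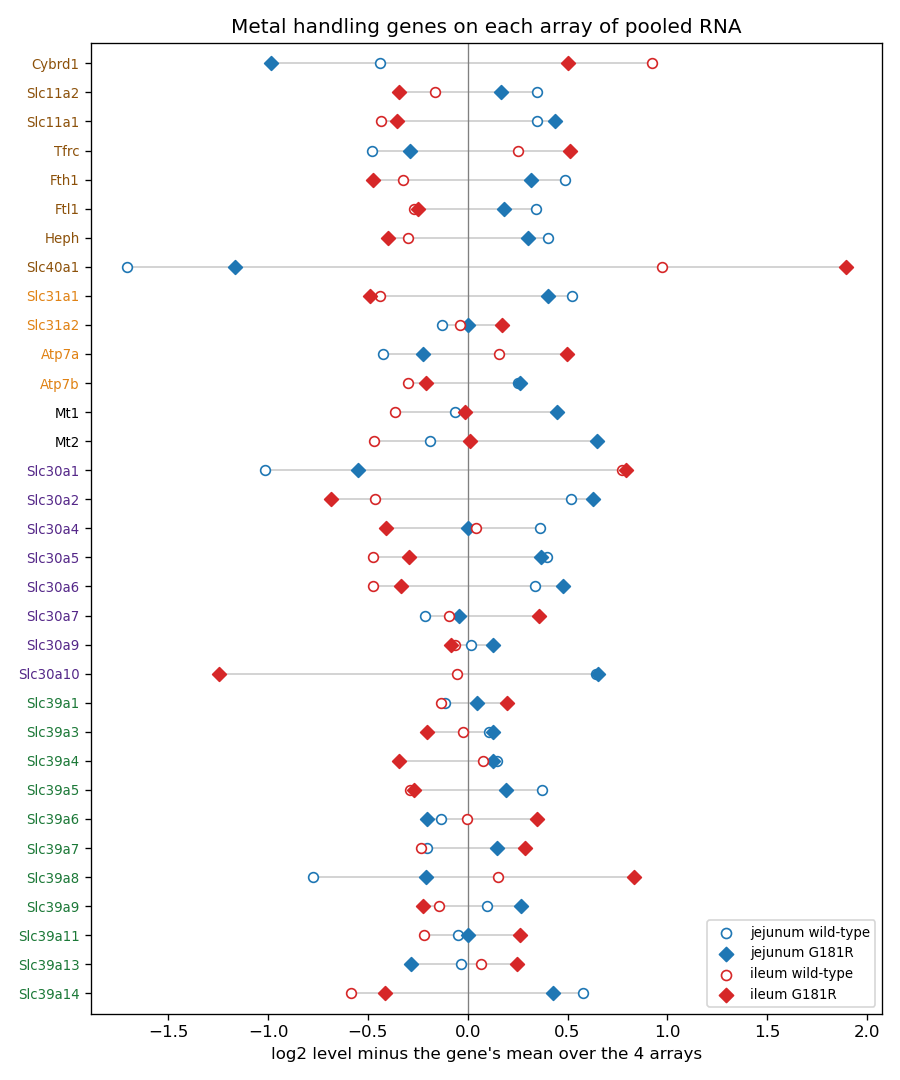
Level of the 33 genes that were above background on all 4 arrays, as the log2 level minus the gene's own mean over the arrays (x axis); each marker is 1 array of RNA pooled from 5 mice, blue for jejunum and red for ileum, open for wild-type and filled for G181R. Slc40a1 spans the widest range, with both ileum arrays above both jejunum arrays, and Slc30a10 in G181R ileum lies apart from its other arrays.

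The first comparison asks how these genes differed between the DAO genotypes. Most lay within 1.5-fold in both tissues. Of the 33 metal genes measured in jejunum, 0 reached 2-fold higher in G181R and 0 reached 2-fold lower, beside 0.763% and 0.749% of all 21225 measured genes. In ileum 0 of 35 were at least 2-fold higher, beside 2.01% of 21477 genes, and 1 of 35 was at least 2-fold lower, beside 3.21%. That gene was Slc30a10. Within 1.5-fold lay 32 of 33 genes in jejunum and 32 of 35 in ileum. The median log2 difference was 0.05 in jejunum and 0.14 in ileum, with -0.01 and 0.03 over all measured genes, and the median size of the difference was 0.16 and 0.20, with 0.16 and 0.23 over all. The metal genes as a whole thus differed between genotypes by about as much as other genes did.

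Slc30a10, which is known to export manganese, was the lowest of the metal genes in G181R ileum relative to wild-type. In jejunum its signal read 398.9 (wild-type) and 409.7 (G181R), and in ileum 291.0 and 120.8. The G181R ileum array was the low one, and the jejunum arrays were alike. The log2 difference was -1.19 in ileum (2.28-fold lower) and 0.01 in jejunum, and the ileum difference minus the jejunum difference was -1.20. The gene has 1 probe, on chromosome 1 at 187292107 to 187292166 (mm9), and with another background correction, normexp, the ileum difference was -0.87, below 2-fold.

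Importers that also carry manganese were measured on all arrays. Slc39a8 (ZIP8), which imports zinc, manganese and iron, read 99.3 (wild-type) and 151.4 (G181R) in jejunum, and 224.4 and 341.1 in ileum. It was the highest Slc39a gene by genotype difference in both tissues, at 0.58 in jejunum and 0.68 in ileum. Its 2 dimmer probes gave 0.49 and 0.11 in jejunum, and 1.22 and 0.94 in ileum. Slc39a14 (ZIP14), another importer of these metals, differed by -0.15 and 0.17.

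The metallothioneins Mt1 and Mt2, small cysteine-rich proteins that bind zinc and copper, were higher in G181R in both tissues. The signal of Mt1 was 9495.7 (wild-type) and 13826 (G181R) in jejunum, and 9122.4 and 11059 in ileum. Mt2 had signals of 2341.1 and 4294.2 in jejunum, and of 2293.6 and 3025.9 in ileum. For each gene both G181R arrays lay above both wild-type arrays. On the scaled level, though, Mt1 was nearly alike in G181R ileum (5.98) and wild-type jejunum (5.93). The log2 differences were 0.51 (1.42-fold) and 0.36 (1.28-fold) for Mt1, and 0.84 (1.79-fold) and 0.48 (1.39-fold) for Mt2, in jejunum and ileum. A second Mt1 probe, designed on a predicted transcript, had signals of only 43.9 to 53.4 and differed by -0.05 and -0.21. Mt2 in jejunum was the largest difference among the 33 genes measured there, and it stayed short of 2-fold.

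Metallothionein genes and Slc30a1 are known targets of MTF-1, a zinc sensor that binds metal response elements. The RefSeq promoter windows of Mt1, Mt2, Slc30a1 and Slc30a10 are shown, the first 3 as genes known to answer to this sensor and Slc30a10 as the gene past 2-fold between genotypes. The Mt2 and Slc30a10 windows are those with the most matches in the set when matches on both strands are counted. Each is the 250 bases before the RefSeq start in GRCm38.p6, read 5′ to 3′ on the gene's strand. Capitals mark the core of the element, TGCACNC or TGCGCNC, on either strand; on the opposite strand it reads GNGTGCA or GNGCGCA, and no other motif was searched. The windows lie at chromosome 8, 94178839 to 94179088, plus strand for Mt1, at chromosome 8, 94172368 to 94172617, plus strand for Mt2, at chromosome 1, 191906531 to 191906780, plus strand for Slc30a1 and at chromosome 1, 185454598 to 185454847, plus strand for Slc30a10.

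Mt1: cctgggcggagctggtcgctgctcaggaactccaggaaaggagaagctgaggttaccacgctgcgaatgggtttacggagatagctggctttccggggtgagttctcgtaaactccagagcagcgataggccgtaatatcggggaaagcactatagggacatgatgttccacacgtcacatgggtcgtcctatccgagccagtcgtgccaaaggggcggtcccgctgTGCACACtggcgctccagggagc

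Mt2: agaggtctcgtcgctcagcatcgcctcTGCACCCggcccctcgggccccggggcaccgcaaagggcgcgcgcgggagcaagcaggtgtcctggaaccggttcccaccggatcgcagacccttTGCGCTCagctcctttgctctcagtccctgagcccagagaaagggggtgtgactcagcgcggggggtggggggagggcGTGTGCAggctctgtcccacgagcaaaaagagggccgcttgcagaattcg

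Slc30a1: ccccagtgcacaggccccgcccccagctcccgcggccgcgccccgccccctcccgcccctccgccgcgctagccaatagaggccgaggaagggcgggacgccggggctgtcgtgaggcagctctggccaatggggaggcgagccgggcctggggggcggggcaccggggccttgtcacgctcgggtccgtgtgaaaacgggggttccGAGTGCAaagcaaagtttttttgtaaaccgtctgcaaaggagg

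Slc30a10: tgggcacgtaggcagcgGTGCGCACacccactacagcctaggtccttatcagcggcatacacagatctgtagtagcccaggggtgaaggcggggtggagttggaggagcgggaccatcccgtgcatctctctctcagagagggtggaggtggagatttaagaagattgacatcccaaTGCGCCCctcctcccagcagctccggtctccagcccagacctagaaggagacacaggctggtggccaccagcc

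The core was found 1 time in the Mt1 window, 3 times in that of Mt2, 1 time in that of Slc30a1 and 3 times in that of Slc30a10. Bases outside these windows, also those after the RefSeq start, were not searched. The counts are therefore not those of whole promoters, and elements of a gene may lie outside its window. Of 32851 windows of this length in the RefSeq table, 21.4% held at least 1 match and 5.17% at least 2. Among the 38 windows of the 31 metal genes that the table lists, 17 held at least 1 match and 6 at least 2. The windows were not matched on base composition. The shares were 44.7% and 15.8%. The first 2 matches of Slc30a10 overlap on opposite strands, so they mark 1 stretch. Its place beside Mt2 rests on counting both. Mt2 and Slc30a10 differed in opposite directions in G181R ileum, and the part of the matches in either difference was not tested.

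MTF-1 itself (Mtf1) differed by -0.09 in jejunum and -0.05 in ileum, and its dimmer probes lay between -0.20 and 0.31. Slc30a1 (ZnT1), the zinc exporter of the plasma membrane, read 393.9 (wild-type) and 559.6 (G181R) in jejunum, and 1617.6 and 1557.7 in ileum. It was 1.39-fold higher in G181R jejunum (log2 0.47), while the ileum arrays differed by 0.02. Slc39a4 (ZIP4), the main importer of dietary zinc at the brush border, had signals of 28711 and 28829 in jejunum, and of 32321 and 22861 in ileum. The G181R ileum array was lowest, with a log2 difference of -0.42, and the jejunum arrays differed by -0.03.

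Slc39a5 (ZIP5), an importer of the basolateral side, differed by -0.18 in jejunum and 0.02 in ileum. Slc39a7 (ZIP7), which releases zinc from the endoplasmic reticulum and Golgi, was higher by 0.36 in jejunum and 0.52 in ileum, and its second probe gave 0.22 and 0.61. Slc39a11 was higher by 0.48 in ileum and by 0.05 in jejunum, with 0.59 and -0.06 at another probe. Over the Slc39a family, 6 of 11 measured genes were higher in G181R jejunum and 10 of 13 in G181R ileum, with medians of 0.02 and 0.18 and a range from -0.42 to 0.68. Slc39a1 differed by 0.16 and 0.33. Slc39a6 (-0.07 and 0.35), Slc39a13 (-0.25 and 0.18), Slc39a9 (0.17 and -0.08) and Slc39a3 (0.02 and -0.18) had opposite signs in jejunum and ileum at their brightest probes. The other Slc39a9 probes gave 0.49 and 0.28, and 0.17 and -0.17. For Slc39a13 another probe gave -0.07 and -0.12, and a further one -0.45 in jejunum alone. Slc39a2 and Slc39a10, not measured in both jejunum arrays, differed by 0.14 and 0.33 in ileum.

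Among the ZnT genes, Slc30a4, which loads zinc into vesicles, was lower in G181R in both tissues, by a log2 difference of -0.36 in jejunum and -0.45 in ileum. Slc30a7, a transporter of the Golgi, was higher by 0.17 and 0.45. Slc30a2, which loads the granules of secretory cells such as Paneth cells, differed by 0.10 and -0.21. Slc30a5, Slc30a6 and Slc30a9 lay between -0.03 and 0.18. The Paneth cell markers, measured beside Slc30a2, had a median of 0.48 in jejunum and 0.08 in ileum; their part in its level was not tested.

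The 8 iron genes ran from -0.55 to 0.54 in jejunum and from -0.42 to 0.92 in ileum. Ferroportin (Slc40a1), the known iron exporter of animal cells, read 272.4 (wild-type) and 404.7 (G181R) in jejunum, and 2064.7 and 3689.2 in ileum. Within each tissue the G181R array was the higher one. The genotype difference was 0.54 in jejunum (1.45-fold) and 0.92 in ileum (1.89-fold), the gene closest to the 2-fold limit from below in ileum. A dimmer probe gave 0.40 in ileum. Macrophages also express ferroportin: 8 of 9 measured macrophage markers were higher in G181R ileum, with a median of 0.27. Their median in jejunum was 0.03. Another marker, Cd163, was above background in wild-type ileum alone (15.6, against 3.7 in G181R ileum). It was at least 2.42-fold lower in G181R ileum, opposite to those 8. The log2 of the summed level of the 10 markers on the array was 8.84 in G181R and 8.77 in wild-type ileum. In jejunum it was 8.31 and 7.97. The marker with the highest signal was Lyz2. The part of macrophages in the Slc40a1 difference was not tested.

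Cybrd1, the ferric reductase of the brush border, was dim. It read 24.0 (wild-type) and 16.8 (G181R) in jejunum, and 72.8 and 51.7 in ileum. It was lower in G181R in both tissues, with log2 differences of -0.55 and -0.42. After normexp correction these were -0.16 and -0.22. Its other probe was below background on all arrays.

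Slc11a2 (DMT1), the importer of ferrous iron, had signals of 609.3 and 548.0 in jejunum, and of 506.6 and 422.4 in ileum. Its genotype differences were -0.19 and -0.18, and over its 4 probes they ran from -0.22 to -0.02 in jejunum and from -0.33 to 0.06 in ileum. Heph, the copper-dependent oxidase that works with ferroportin, read 9361.1 and 8960.8 in jejunum, and 6831.4 and 6047.1 in ileum, a difference of -0.10 in both tissues. A dim probe for another Heph transcript gave -0.42 and 0.07. Slc11a1, an iron and manganese pump of phagosomes, had signals of 37.3 to 59.1 and differed by 0.10 and 0.07.

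The transferrin receptor Tfrc, through which cells take iron from blood, had signals of 408.8 and 477.2 in jejunum, and of 805.1 and 909.8 in ileum, with genotype differences of 0.19 and 0.25. Its second probe gave -0.04 and 0.47. Dividing cells are rich in this receptor, and the 8 cell cycle genes measured beside it had medians of 0.48 in jejunum and 0.60 in ileum; their part in the Tfrc level was not tested. The ferritin heavy chain Fth1 read 80437 and 72990 in jejunum, and 54386 and 46497 in ileum, with differences of -0.17 and -0.15. For the light chain Ftl1 the signals were 62334 and 57033, and 48433 and 46317, with differences of -0.16 and 0.01. Ferritin genes have processed copies in the genome, and cross-reading by the probes was not tested. Ferritin and Tfrc are controlled in large part at the level of translation or RNA stability by iron regulatory proteins, so their RNA is an incomplete guide to the protein.

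Copper genes differed between genotypes by 0.33 or less in size. Slc31a1 (CTR1) had signals of 5353.4 and 5031.8 in jejunum, and of 3253.1 and 2982.4 in ileum, with differences of -0.12 and -0.05. Atp7a, which pumps copper toward the blood, had signals of 793.4 and 934.9 in jejunum, and of 1412.8 and 1687.6 in ileum. It differed by 0.20 and 0.33, and its 2 other probes gave 0.16 and 0.13, and 0.36 and 0.45. Slc31a2, a CTR1 relative of vesicles, differed by 0.13 and 0.20, and Atp7b, the Wilson disease ATPase, by 0.01 and 0.09.

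**Figure D2:**
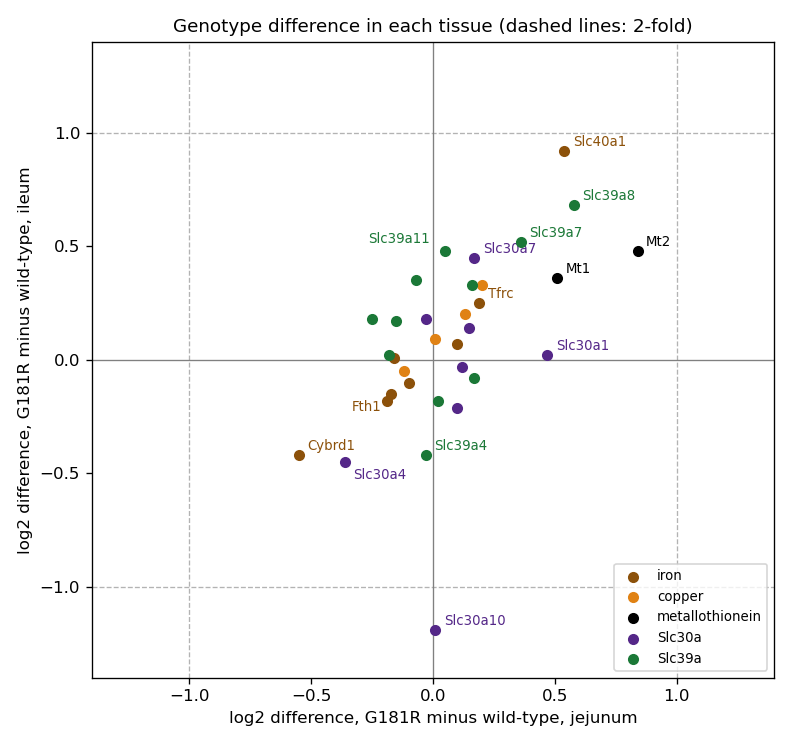
Log2 difference of G181R minus wild-type in jejunum (x axis) and in ileum (y axis) for the 33 metal genes measured in both tissues; each point is 1 gene, coloured by role, from 1 pooled array per group, and dashed lines mark 2-fold. Slc40a1, Slc39a8, Slc39a7, Mt1 and Mt2 lie at the upper right, Cybrd1 and Slc30a4 at the lower left, and Slc30a10 lies below the 2-fold line of ileum.

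The genotype comparisons of the tissues use different arrays, so a gene's values in them can be read side by side. At a limit of 1.25-fold, chosen after the values were seen, 5 of 33 genes were higher in G181R in both tissues (Mt1, Mt2, Slc39a7, Slc39a8 and Slc40a1) and 2 of 33 were lower in both (Cybrd1 and Slc30a4). Over all 20418 genes measured in both, 6.51% were higher and 6.44% lower in both at this limit, against 15.2% and 6.06% of the metal genes. The sign was the same in both tissues for 22 of 33 metal genes, and for 68.4% of all genes. Nothing particular to the metal genes can be read from these shares, since the arrays have no replicate.

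Genes that act around these transporters were taken from lists of iron regulation and haem, copper chaperones and zinc genes, 70 genes in all with 69 on the array. In jejunum 1 of 57 measured genes was at least 2-fold higher in G181R (1.75%, beside 0.763% of all genes) and 0 were lower (beside 0.749%). In ileum 6 of 55 were higher (10.9%, beside 2.01%) and 1 was lower (1.82%, beside 3.21%). The gene higher in both tissues was Steap1, a membrane protein of the family of metal reductases. Its signal was 86.9 (wild-type) and 216.2 (G181R) in jejunum, and 402.4 and 1316.2 in ileum, 2.43-fold and 3.45-fold higher (log2 1.28 and 1.79; 0.92 and 1.63 with normexp). Its relative Steap2, a reductase of iron and copper, lay at the limit in both tissues at its brightest probe. That probe read 30.0 and 60.8 in jejunum, and 87.9 and 163.4 in ileum (log2 0.99 and 0.97, and 0.37 and 0.67 with normexp). A dimmer Steap2 probe gave 1.57 in ileum, and the mean of all probes gave 0.91 in jejunum and 1.27 in ileum. Both genes lie on chromosome 5, with probes at 5736369 to 5736428 for Steap1 and at 5671867 to 5671926 for Steap2 (mm9). Steap3 differed by -0.12 and 0.01, and Steap4 was not above background.

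The other iron genes at least 2-fold higher in G181R ileum were lactoferrin (Ltf, log2 1.86), lipocalin 2 (Lcn2, 1.50), which binds bacterial iron carriers, Hif1a (1.39), a subunit of the hypoxia-inducible factor, and haem oxygenase 1 (Hmox1, 1.16). In jejunum they differed by 0.87, 0.14, 0.31 and 0.09. With normexp Lcn2 stood at 0.80 and Hmox1 at 0.74 in ileum. In the mean of all probes Hmox1 stood at 0.49 in ileum and Lcn2 at 1.07 in jejunum. That mean takes in a second Hmox1 probe, below background on all arrays (1.2 to 1.6). It also takes in a second Lcn2 probe, below background in wild-type jejunum (1.7). Neutrophils hold much lactoferrin and lipocalin 2, and their marker Ly6g was higher by 1.86 in ileum and by 0.14 in jejunum, while Mpo and Elane differed by -0.06 and -0.03 in ileum. The neutrophil genes S100a8 and S100a9 were at least 3.58-fold and 14.2-fold higher in G181R ileum. Cxcr2 and Ngp were below background on both ileum arrays. The log2 of the summed level of all 8 neutrophil markers, 4 of them measured, was 6.62 in G181R and 6.52 in wild-type ileum. Most of the signal came from Csf3r (16746 and 16761). The part of neutrophils was not tested. Hepcidin (Hamp), the hormone that removes ferroportin from the membrane, was below background in wild-type ileum and had a signal of 39.3 in G181R ileum, at least 5.77-fold higher. For such bounds the brighter array is set against the other array's own signal or its lowest signal above background, whichever is higher, on scaled levels. Hamp has a near-identical neighbour, Hamp2, so its value is uncertain.

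The gene lower in G181R ileum was mitoferrin 1 (Slc25a37), which carries iron into mitochondria. The signals were 3598.1 (wild-type) and 2172.1 (G181R) in jejunum, and 5251.1 and 2189.6 in ileum, with log2 differences of -0.76 and -1.18. Its 3 other probes ran from -0.71 to -0.43 in jejunum and from -1.31 to -0.91 in ileum. Red cell precursors use this carrier, and 4 of 8 red cell genes were measured, with medians of -0.46 in jejunum and -0.70 in ileum. The log2 of the summed level of all 8 was 5.25 in G181R against 5.76 in wild-type jejunum. In ileum it was 4.19 against 4.75. Another red cell gene, Slc4a1, was below background in wild-type ileum and read 16.7 in G181R ileum, at least 2.45-fold higher. Their part was not tested. Epas1, the hypoxia-inducible subunit known to drive Cybrd1, Slc11a2 and Slc40a1 in enterocytes, differed by -0.23 and 0.30.

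In the zinc list, carbonic anhydrase 4 (Car4), a zinc enzyme of the brush border, was 2.94-fold higher in G181R ileum (log2 1.56) and differed by 0.29 in jejunum. Intestinal alkaline phosphatase (Alpi), another zinc enzyme there, lay just short of 2-fold lower in G181R ileum, with signals of 3096.6 in wild-type and 1468.0 in G181R, and differed by -0.34 in jejunum. Car1 and the protease Mep1a differed by 0.76 and -0.54 in ileum. Calprotectin genes S100a8 and S100a9, the neutrophil genes given above, whose products withhold zinc from microbes, were above background in G181R ileum alone, with signals of 24.4 and 96.8. Mt3 differed by -0.17 and -0.14. In the copper list 0 of 12 measured genes reached 2-fold in either tissue; Pam, a copper-dependent enzyme of peptide hormones, was highest in jejunum at 0.60, and Ccs, which loads copper into Sod1, lowest in ileum at -0.47. Sco2, which delivers copper to cytochrome c oxidase, differed by -0.19 and -0.39, and Sod3 by -0.27 and -0.05.

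**Figure D3:**
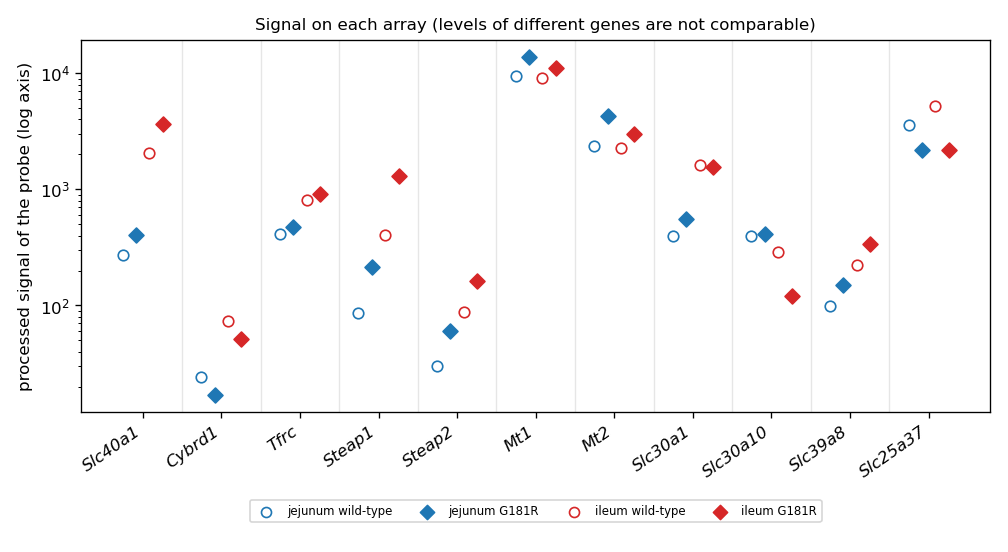
Processed signal (log axis, no unit) of 8 metal transport and binding genes with Steap1, Steap2 and Slc25a37 on each of the 4 arrays; each marker is 1 array of RNA pooled from 5 mice, blue for jejunum and red for ileum, open for wild-type and filled for G181R. Steap1 and Slc40a1 are higher in G181R within each tissue and higher in ileum than in jejunum, while Slc25a37 is lower in G181R in both tissues.

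The next comparison asks how the genes differed between ileum and jejunum. The regional differences were larger than those between genotypes, in both genotypes. In wild-type mice 3 of the 33 metal genes measured reached 2-fold higher in ileum, or 9.09%, beside 7.4% of all 20751 genes, and 1 was at least 2-fold lower, or 3.03%, beside 9.12%. In G181R mice 5 of 35 were higher, or 14.3%, beside 7.29% of 21474 genes, and 2 were lower, or 5.71%, beside 8.73%. The median log2 difference was -0.24 in wild-type and -0.42 in G181R, with -0.05 and -0.03 over all genes. The sign was the same in both genotypes for 30 of 33 genes. Each array enters a genotype and a regional comparison, so these are not independent of the values above.

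Ferroportin had the largest regional difference of the metal genes. With the signals given above, Slc40a1 was 6.40-fold higher in ileum in wild-type (log2 2.68) and 8.31-fold higher in G181R (3.06). Both ileum arrays lay far above both jejunum arrays. The dimmer probe gave 1.82 in G181R and was below background in wild-type jejunum. Of the 9 macrophage markers measured, 8 were lower in ileum in wild-type, with a median of -0.89. In G181R 8 of 9 were lower, with a median of -0.63. The log2 of the summed level of the 10 on the array went the other way. It was 8.77 in ileum against 7.97 in jejunum in wild-type, and 8.84 against 8.31 in G181R. Lyz2, the marker with the highest signal, was higher in ileum by 1.30 and 0.95. Cd163 was at least 1.79-fold higher in ileum in wild-type and below background on both G181R arrays. The part of macrophages in the ferroportin difference was not tested.

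The zinc exporter Slc30a1 was also at least 2-fold higher in ileum in both genotypes, 3.47-fold in wild-type (log2 1.79) and 2.54-fold in G181R (1.34). Metallothioneins did not go with it: Mt1 differed by -0.30 and -0.46 and Mt2 by -0.27 and -0.64. Cybrd1 was higher in ileum by 1.36 and 1.49, but after normexp by 0.54 and 0.48, and its level there rests on signals of 16.8 to 72.8. The iron importer Slc11a2 had a log2 difference of -0.51 in both genotypes, and over its probes the values ran from -0.97 to 0.17 in wild-type and from -1.17 to -0.02 in G181R. Fth1 differed by -0.81 and -0.78, Ftl1 by -0.61 and -0.43, and Heph by -0.70 in both genotypes, with 0.10 and 0.59 at a dim probe for another Heph transcript. Tfrc was higher by 0.73 and 0.80, and its other probe gave -0.03 and 0.47.

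Slc39a14 was the gene at least 2-fold lower in wild-type ileum, with signals of 1869.6 in jejunum and 990.4 in ileum (log2 -1.16); in G181R they were 1720.7 and 1057.6 (-0.84). Slc39a8 went the other way, at 0.93 in wild-type and 1.04 in G181R (0.84 with normexp). Slc30a10 differed by -0.70 in wild-type and by -1.89 in G181R, 3.72-fold lower. Slc30a2 read 227.6 (wild-type) and 249.9 (G181R) in jejunum, and 135.8 and 110.9 in ileum, differences of -0.99 and -1.30. The G181R difference was -0.97 with normexp. The Paneth cell markers went the other way from Slc30a2, with regional medians of 2.02 and 1.75. Slc39a10, a dim importer, had signals of 4.3 and 8.8 in jejunum and of 21.9 and 26.0 in ileum, which is at least 2.51-fold higher in wild-type and 2.69-fold higher in G181R (log2 1.43, and 0.26 with normexp).

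Brush border Slc39a4 was nearly alike along the gut in wild-type, at -0.07, and differed by -0.47 in G181R. Basolateral Slc39a5 differed by -0.66 and -0.47. For copper, the importer Slc31a1 differed by -0.96 and -0.89, the exporter Atp7a by 0.59 and 0.72. Atp7b was at -0.55 and -0.47 and Slc31a2 at 0.10 and 0.17. The copper importer and the copper exporter of enterocytes thus lay on opposite sides in both genotypes, as did the iron importer Slc11a2 at its brightest probe and the exporter Slc40a1.

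Among the listed genes around these transporters, 4 of 55 measured were at least 2-fold higher in ileum in wild-type (7.27%, beside 7.4% of all genes) and 11 lower (20%, beside 9.12%). In G181R 8 of 58 were higher (13.8%, beside 7.29%) and 9 lower (15.5%, beside 8.73%). The medians were -0.41 and -0.26. The folate and haem carrier Slc46a1 was 29.5-fold and 21.9-fold lower in ileum (log2 -4.88 and -4.45). Haptoglobin (Hp), which binds free haemoglobin, was higher by 2.98 and 2.92, Steap1 by 1.97 and 2.47, and Steap2 by 1.31 and 1.29. At least 2-fold lower in ileum in wild-type were also the iron regulatory proteins Aco1 (-1.26, and -1.30 in G181R) and Ireb2 (-1.05 and -0.83), Fbxl5 (-1.17 and -0.71), which marks Ireb2 for decay, and Ncoa4 (-1.29 and -1.18), which delivers ferritin for breakdown. With normexp Steap2 stood at 0.47 and 0.78 and Ireb2 in wild-type at -0.98 (-0.95 with quantile normalization). In the mean of all probes Steap2 stood at 0.91 in wild-type.

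Some listed genes passed 2-fold between regions in 1 genotype by the measured difference at their brightest probe. Hif1a (-1.10 and -0.02) and Lcn2 (-1.42 and -0.06) did so in wild-type. With normexp they stood at -0.98 and -0.79 there, and in the mean of all probes at -0.84 and 0.16. The changed sign of Lcn2 in that mean rests on its second probe, below background on both wild-type arrays (1.7 and 6.9). Past 2-fold in G181R alone were Ltf (0.06 and 1.05), Smad6 (-0.56 and -1.16), Car1 (0.88 and 1.73) and Car4 (0.56 and 1.83). In the mean of all probes Car1 stood at 2.97 in wild-type and 4.05 in G181R, past 2-fold in both. Its second probe was below background in jejunum. Hamp (1.56) and Gpr39 (-2.10) passed in G181R and were not measured in wild-type. By its bound, Gpr39 was at least 5.57-fold lower in wild-type ileum than in wild-type jejunum. With normexp Ltf stood at 0.66, Smad6 at -0.70, Hamp at 0.37 and Gpr39 at -0.57 in G181R. Of the zinc enzymes, Car2 differed by -5.35 and -4.89, Ace by -3.19 and -3.05, Alpi by -2.44 and -3.10 and Mep1a by 2.48 and 2.05. The copper chaperone Sco2 differed by -1.44 and -1.64.

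**Figure D4:**
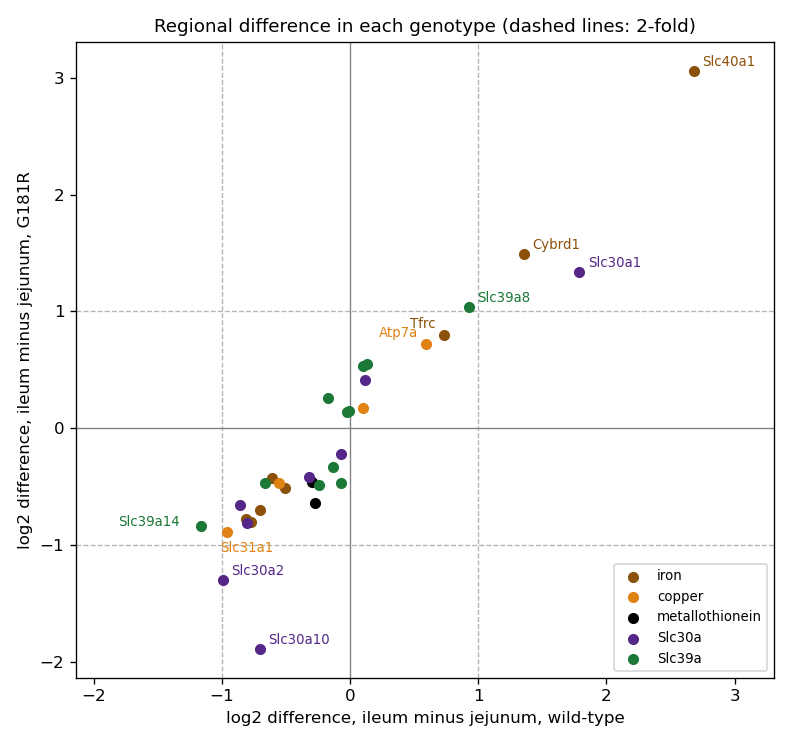
Log2 difference of ileum minus jejunum in wild-type (x axis) and G181R mice (y axis) for the 33 metal genes measured in both genotypes; each point is 1 gene, coloured by role, from 1 pooled array per group, and dashed lines mark 2-fold. Slc40a1, Slc30a1 and Cybrd1 lie beyond 2-fold higher in ileum in both genotypes, and Slc30a10 lies at -0.70 in wild-type and -1.89 in G181R.

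The array positions of the main probes, in mm9 coordinates as the files give them, are chromosome 1 at 45965255 to 45965314 for Slc40a1, chromosome 8 at 96704165 to 96704224 for Mt1 and at 96697371 to 96697430 for Mt2, and chromosome 1 at 193736760 to 193736819 for Slc30a1. Slc39a8 was read on chromosome 3 at 135551169 to 135551228, Slc39a4 on chromosome 15 at 76442866 to 76442925, Slc11a2 on chromosome 15 at 100219212 to 100219271 and Cybrd1 on chromosome 2 at 70980706 to 70980765. For all 38 genes the chromosome of the chosen probe was that of the RefSeq gene table. Which exon a probe lies in was not analysed here.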

How the data were processed

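Per the file headers, the authors scanned 4 single-colour Agilent arrays and deposited intensity values made with Agilent Feature Extraction 11.5.1.1, background-subtracted and detrended within each array, and not scaled across arrays. Flags per spot mark outliers and signal well above background. The authors also deposited a table of log2 values; 2356 of its 56605 probes hold a repeated fill value, among them those of Slc39a13 and Slc39a3, so it served as an alternative only.

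The log2 processed signal was averaged over a probe's spots without outliers, and the 75th percentile of each array was subtracted. The brightest probe stood for its gene. A gene was measured where the flag of that probe held for both arrays compared, and counted from 2-fold. Signals on every array are given for metal genes at least 2-fold different in any comparison and for 13 main absorptive and storage genes. From each list of genes around the transporters, the 4 most different between genotypes and those at least 2-fold different by measured value were named. Cell type markers were named only in part, so an unnamed one can be past 2-fold. Cubn, for example, differed between genotypes by -1.16 in jejunum and -2.62 in ileum. Steap2, Steap3, Steap4, Epas1, Mtf1, Mt3, Lct and genes with only a bound were added after their values were seen, as were signals of further genes.

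Members and lists were chosen with earlier results of these data known. The counting was tested on simulated data. The 5 alternatives were normexp (limma 3.58.1), quantile normalization, no background filter, the mean of a gene's probes, and the deposited values without fill probes. The mean of a gene's probes takes in probes below background. Python 3.11.15 was used. The number of arrays limits the precision.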

Additional observations from a re-analysis of the deposited data

How the results depend on the processing

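With normexp background correction, whose offset of 50 shrinks differences of dim probes by construction, the count of metal genes at least 2-fold lower in G181R ileum was 0 in place of 1 (Slc30a10). In the same setting those higher in ileum in G181R numbered 2 in place of 5 (Cybrd1, Slc39a10 and Slc39a8 were lost), with 1 in place of 2 lower (Slc30a2 was lost) and a median of -0.32. With no filter on dim probes, 1 gene was higher (Slc39a10) and 1 lower (Slc30a3) in G181R jejunum, 2 were lower in wild-type ileum than jejunum, and the median between regions in G181R was -0.31. In the mean of all probes, the median was 0.07 between genotypes in ileum and -0.33 between regions in G181R, and Cybrd1 was below 2-fold between regions, at 0.54 and 0.71. With quantile normalization the regional medians were -0.12 in wild-type and -0.32 in G181R. The mean of probes takes in the second Cybrd1 probe, below background on all arrays (signals of 1.3 to 1.6). Without the filter, Slc39a10 counts in jejunum with wild-type below background (4.3), and Slc30a3 with G181R below background (1.3). The cause of the remaining shifts, other than under normexp, was not tested. The other counts stayed within 1.5 times. No metal gene with signals given and at least 2-fold different changed sign. With quantile normalization Ftl1 and Slc30a1 between genotypes in ileum were -0.06 and -0.02 in place of 0.01 and 0.02, and Slc39a4 between regions in wild-type was 0.12 in place of -0.07; Ftl1 was -0.07 in the mean of probes. Over all genes, normexp gave 60 higher and 33 lower in G181R jejunum in place of 162 and 159, 179 and 216 in ileum in place of 431 and 689, and 781 and 1010, and 765 and 970, between regions in wild-type and G181R in place of 1535 and 1892, and 1566 and 1875. No filter gave 1165 and 1650, 1507 and 2001, 2944 and 4037, and 2931 and 3937, in the same order. Of the 70 listed genes around the transporters, 0 in place of 1 were higher in G181R jejunum and 5 in place of 8 in G181R ileum against jejunum with normexp. No filter gave 3 higher and 1 lower in G181R jejunum, and 10 and 3 in ileum in place of 6 and 1. The mean of probes gave 3 higher in G181R jejunum, and both it and quantile normalization gave 2 in place of 1 lower in G181R ileum.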
